A study of Mus musculus with 2 samples.

Results

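The genes described here are 10 components of the unfolded protein response and of endoplasmic reticulum-associated degradation (ERAD): Ern1, Atf6, Eif2ak3, Xbp1, Sel1l, Syvn1, Herpud1, Edem1, Pdia4 and Creld2. They were chosen by name, and each was read from every probe that the array files label with its symbol, which gave 10 probes for 10 genes, out of 13773 genes measured in all. RNA came from the mouse macrophage-like line RAW264.7 and was read on 1 array of Lamtor1 knockdown cells and 1 array of control cells. Lamtor1 anchors the Ragulator complex, a platform on the lysosome for the Rag GTPases and the kinase complex mTORC1, and the question of the series is the activity of the transcription factor TFEB without it. The labels describe infection with a mixture of 2 lentiviral short hairpin vectors against Lamtor1 and limiting dilution after it, in the same words for the knockdown cells and the control cells. The sources used here do not give the treatment of the control cells or the clonality of the samples.

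The unfolded protein response adjusts the folding capacity of the endoplasmic reticulum (ER) to its load. Its sensors are membrane proteins of the ER: the kinase and nuclease IRE1 (gene Ern1), which splices Xbp1 mRNA into the form that encodes an active transcription factor, the kinase PERK (Eif2ak3), which phosphorylates the initiation factor eIF2 alpha and thereby favours translation of ATF4, and ATF6, a transcription factor released from the membrane by proteolysis in the Golgi. ERAD takes proteins that fail to fold back across the membrane for ubiquitination and destruction by the proteasome, and its genes, with those of ER chaperones, are classical targets of XBP1 and ATF6. Macrophages have a large secretory and membrane traffic and express this machinery at rest.

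Each group has 1 array, so differences have no replicate check, no test was possible and the values describe these 2 arrays. The number of arrays limits the precision. Of 43020 spots, 52.9% gave signal well above background in the knockdown and 53.3% in the control. A level is the log2 signal of a probe minus the 75th percentile of its array, and a difference is the knockdown level minus the control level, so that 1 in size is 2-fold. Levels of different probes are not set against each other. Lamtor1 itself had a level of -0.43 on the knockdown array and 4.10 on the control array, 23.1-fold lower. Of 12 macrophage marker genes, 11 were well above background on both arrays, and Cd163 was on neither. Their differences reached 1.52 for Fcgr3, 5 of the 11 were above 0, and their median levels were 2.11 in the knockdown and 2.50 in the control, and the part of these shifts in the results below was not tested. Of 8 T and B cell markers 6, and of 8 fibroblast and epithelial markers 7, were not well above background on either array. The exceptions were Cd4 (levels 0.73 in the knockdown and 0.66 in the control), Cd3e (-1.35 in the knockdown and -1.40 in the control) and Col1a2 (-5.54 in the knockdown and -5.62 in the control). Another Cd4 probe, at -7.77 in the knockdown and -7.13 in the control, was not well above background on either array.

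All 10 probes were well above background on both arrays. Ern1 was 2.04-fold higher in the knockdown, and the other 9 genes stayed within 1.33-fold of the control. Of the 10 differences 5 were above 0 and 5 below, with a median of 0.10 beside -0.05 over all measured genes. A difference above 0 was found for 45.7% of all measured genes, at least 2-fold higher signal for 9.00% and at least 2-fold lower signal for 8.35%, so 1 of 10 higher and none lower is near that background. Differences of 0.41 or less in size, which cover every gene here except Ern1, were shared by 56.8% of measured genes.

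**Figure D1:**
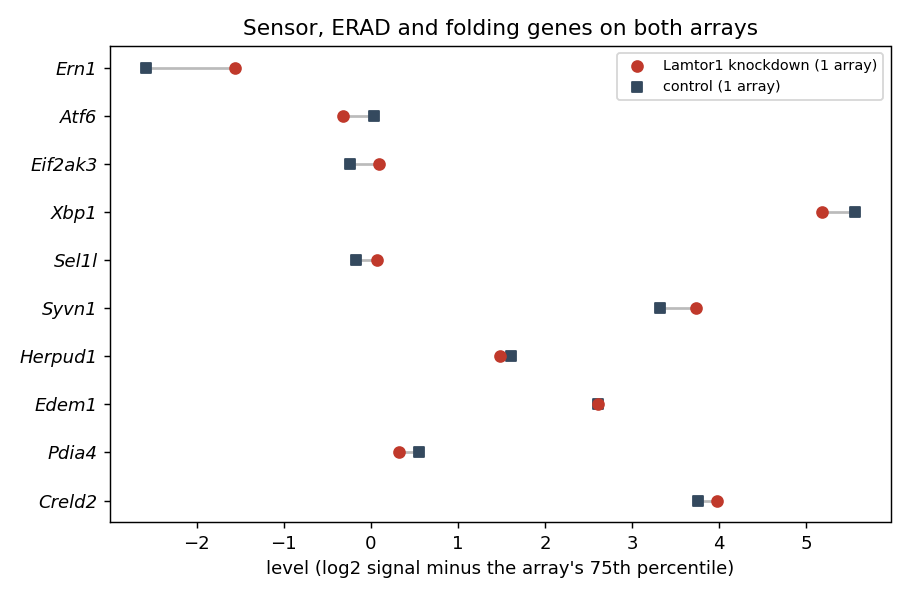
Level of each gene's probe (log2 signal minus the 75th percentile of the array) on the Lamtor1 knockdown array (circles) and the control array (squares), 1 array each. The levels of Ern1 lie farthest apart, at -1.56 in the knockdown and -2.59 in the control, and those of Edem1 coincide at 2.61.

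**Figure D2:**
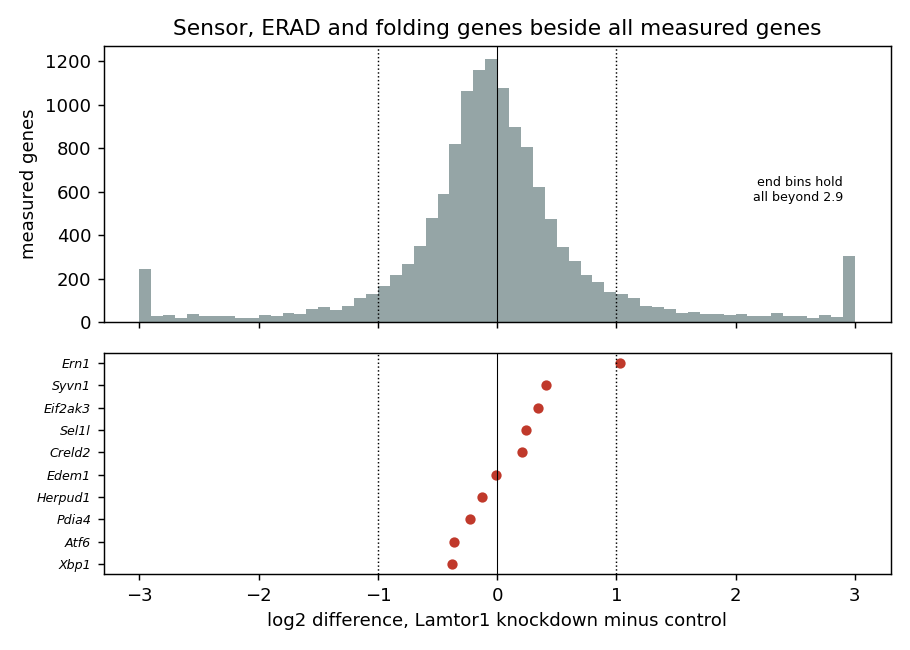
Log2 difference, knockdown minus control, of all 13773 measured genes (upper histogram) and of the 10 genes (lower points), with dotted lines at 2-fold. Ern1 at 1.03 is the 1 gene of the 10 beyond a dotted line, and the other points lie in the body of the histogram.

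Spotting error and the scanner's error estimate both bear on these values, and neither covers cultures or labelling. Among 216 probes spotted at least 3 times, most spots well above background on each array, single-spot differences had a median SD of 0.0784. For the 38 of them within 1 log2 unit of the Ern1 probe it was 0.101. The scanner's own error model gave each signal of the 10 probes an error of 10% to 10.3%, which makes an SD of 0.204 to 0.207 for a difference. Of the 10 differences, 9 were larger than the repeated-spot SD and 8 were larger than the error-model SD. Of all 13773 measured genes, 1211 lay between -0.1 and 0 and 1078 between 0 and 0.1. A further 1161 lay between -0.2 and -0.1 and 897 between 0.1 and 0.2. Most measured genes thus also lay beyond either SD, and these counts do not set the 10 genes apart. Herpud1 and Edem1 were within the error-model SD.

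The sensors differed in direction. Ern1 had a signal of 426.4 intensity units in the knockdown and 195.3 in the control, which is a level of -1.56 against -2.59 and a difference of 1.03. Of all measured genes, 8.73% had a difference at least as high. Its probe lies on chromosome 11 in the mm9 build used by the files (chr11:106258948-106259007, minus strand). Whether the probes lie in exons or UTRs of that build was not analysed here. Eif2ak3 had signals of 1345.3 in the knockdown and 992.6 in the control, with levels of 0.10 and -0.24 and a difference of 0.34, reached by 23.5% of genes. Its probe is at chr6:70855152-70855211 (plus strand). Atf6 went the other way, with signals of 1003.3 in the knockdown and 1205.3 in the control, levels of -0.32 and 0.04 and a difference of -0.36. At least as low a difference was found for 25.5% of genes, and the probe is at chr1:172635311-172635370 (minus strand). The 3 sensors thus spanned 1.39 on the log2 scale, with 2 above 0 and 1 below.

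Whether Ern1 reached 2-fold depended on the processing. Its difference was 0.84 after normexp background correction and 0.98 after scaling over spots above background, and between 1.02 and 1.12 in the other 5 alternatives. It was above 0 in all 7. The deposited value table and the median over its single probe rest on the same intensities as the main setting, so they could hardly differ from it.

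Xbp1, the substrate of IRE1 splicing and the transcription factor of that arm, was 1.30-fold lower in the knockdown. Its signals were 45606 in the knockdown and 55387 in the control, with levels of 5.18 and 5.56 and a difference of -0.38. At least as low a difference was found for 24.7% of measured genes. The gene has 1 probe (chr11:5425816-5425875 in mm9, plus strand), and the share of spliced Xbp1 mRNA was not measured here. Ern1 and its substrate Xbp1 therefore had differences of opposite sign on these arrays.

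The probes behind the sensor and splicing substrate values, and that of the ubiquitin ligase Syvn1, are shown by the first 30 of their 60 bases, 5′ to 3′, since the files name a single oligonucleotide for each of these genes.
Ern1 probe: tggtccctctaccccagaggccagcagatt
Xbp1 probe: ttcttgctagtgtagcttctagaaggtgct
Syvn1 probe: gcttccttcttttggttttgtgttacagga

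Of the ERAD genes, the ligase Syvn1 and its adaptor Sel1l had differences above 0, and Herpud1 and Edem1 lay closer to 0. Syvn1 encodes HRD1, the ubiquitin ligase of the ER membrane. It had signals of 16679 in the knockdown and 11687 in the control, with levels of 3.73 and 3.32 and a difference of 0.41, which 20.4% of measured genes reached. Sel1l, the adaptor that hands substrates to HRD1 and stabilises it, had levels of 0.07 in the knockdown and -0.17 in the control, a difference of 0.24 (probe at chr12:93044963-93045022, minus strand). Herpud1, an ER membrane protein with a ubiquitin-like domain that joins the complex, had levels of 1.48 in the knockdown and 1.61 in the control, a difference of -0.13 (probe at chr8:96919117-96919176, plus strand). Edem1, which marks misfolded glycoproteins by trimming their mannose residues, had levels of 2.61 on both arrays and a difference of -0.0067 (probe at chr6:108808920-108808979, plus strand). Its sign changed with the processing, to 0.09 after median scaling, 0.05 after cyclic loess and 0.016 after normexp background correction. These 4 ERAD genes spanned 0.54.

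The RefSeq table ties another probe to Syvn1 by an older symbol alone. The probe that the files call D530017H19Rik had levels of -3.83 in the knockdown and -3.35 in the control, a difference of -0.48. It lies at chr19:6045128-6045187 on the minus strand in mm9, while the probe named Syvn1 lies at chr19:6053583-6053642 on the plus strand, so the 2 probes read opposite strands, and its value is not taken for Syvn1 mRNA.

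The folding genes also differed in direction and by little. Pdia4, a disulfide isomerase of the ER, had signals of 1574.2 in the knockdown and 1721.2 in the control, levels of 0.33 and 0.55 and a difference of -0.23. Its probe is at chr6:47746516-47746575 (minus strand) and that of Creld2 at chr15:88656997-88657056 (plus strand). Creld2, an ER protein induced by stress, was the only gene of the 10 with repeated spots, 10 per array. Of these, 1 was set aside as an outlier, and the other 9 had signals of 18820 to 20843 with a median of 19677 in the knockdown and of 15332 to 16669 with a median of 15795 in the control. The ranges did not overlap, before or after scaling, and how often this held for other repeated probes was not counted. All 9 differences were above 0, from 0.19 to 0.27, with a mean of 0.21 ± 0.02 (SD over 9 spots of 1 array per group), a ratio of 1.16. This spread is that of spotting within an array and says nothing about cultures. The Creld2 difference was reached by 30.6% of measured genes.

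**Figure D3:**
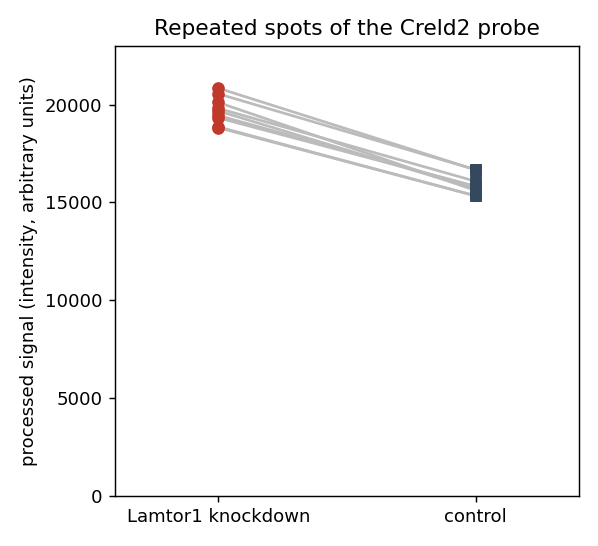
Processed signal, before scaling between arrays, of the 9 usable spots of the Creld2 probe on the knockdown array (left) and the control array (right), with lines joining spots at the same array position. Every knockdown spot, from 18820, lies above every control spot, up to 16669.

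**Figure D4:**
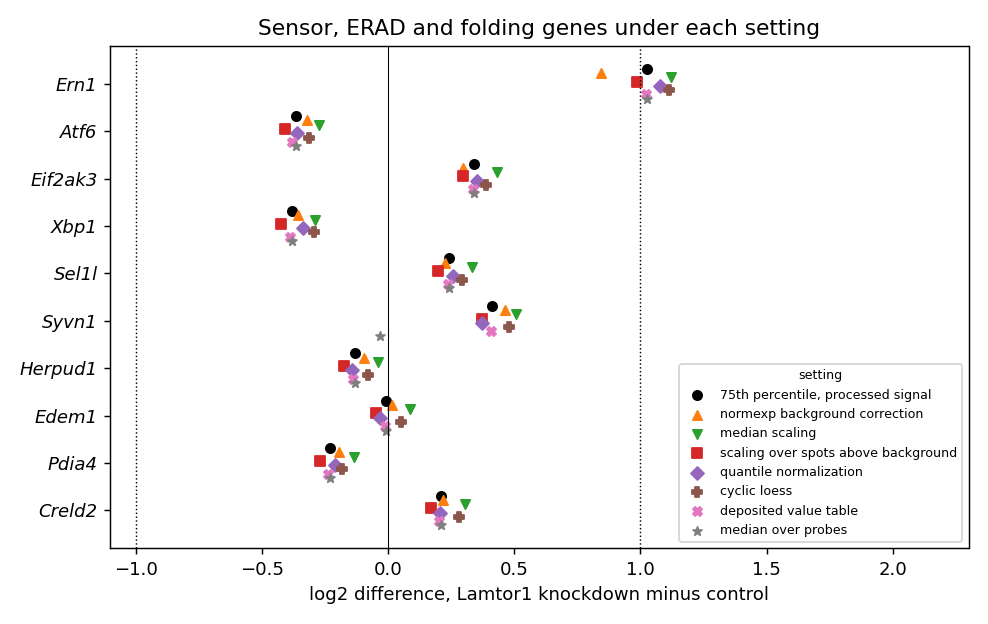
Log2 difference, knockdown minus control, of each gene under the main setting (black circles) and 7 alternatives, with dotted lines at 2-fold. Ern1 falls on both sides of 2-fold, Edem1 on both sides of 0, and 8 genes keep their sign. The 1 point of Syvn1 below 0 is the median over probes, which takes in the opposite-strand probe, and its other points lie above 0.

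XBP1 and ATF6 act through short promoter elements, so the RefSeq promoters of the genes (GRCm38.p6, 250 bases before to 50 after the start) were searched on both strands for 4 motifs. These were the ER stress element ERSE, its variant ERSE-II, the XBP1 element UPRE, searched as TGACGTGG, and the TFEB element CLEAR, searched as TCACGTGA. ERSE, ERSE-II and the opposite strand of UPRE share the letters CCACG. ERSE was found in 39 of 32851 mouse promoters (0.119%), ERSE-II in 12 (0.0365%), UPRE in 222 (0.676%) and CLEAR in 320 (0.974%). Of the 10 genes 9 have a promoter entry, Atf6 being the exception, and 3 of these 9 hold a match. Creld2 holds ERSE on the opposite strand at -126 to -108 from the start, Syvn1 holds ERSE at -44 to -26 and Herpud1 holds ERSE-II at -52 to -42, and no match overlaps another. The last 150 bases before the start are printed for these 3 genes and for Ern1, the gene with the largest difference and no match, 5′ to 3′ on the gene's strand, with the motif in capitals. They cover chr15:88819496-88819645 (plus strand), chr19:6046426-6046575 (plus), chr8:94386279-94386428 (plus) and chr11:106487797-106487946 (minus) in that order.
Creld2: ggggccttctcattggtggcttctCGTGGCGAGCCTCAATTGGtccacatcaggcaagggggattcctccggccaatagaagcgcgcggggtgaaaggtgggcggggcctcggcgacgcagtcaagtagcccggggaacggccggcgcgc
Syvn1: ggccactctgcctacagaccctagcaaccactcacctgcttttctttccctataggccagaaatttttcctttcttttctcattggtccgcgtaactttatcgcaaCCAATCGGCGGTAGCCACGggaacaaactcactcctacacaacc
Herpud1: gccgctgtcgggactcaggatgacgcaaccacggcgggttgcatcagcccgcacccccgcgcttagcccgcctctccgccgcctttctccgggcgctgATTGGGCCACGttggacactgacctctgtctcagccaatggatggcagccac
Ern1: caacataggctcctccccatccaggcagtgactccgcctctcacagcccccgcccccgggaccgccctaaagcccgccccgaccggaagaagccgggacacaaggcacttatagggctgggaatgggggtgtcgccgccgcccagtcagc

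The 3 genes with an ER stress element had differences of 0.21, 0.41 and -0.13, so they did not share a direction. A match is a run of letters and not a measured binding site. Across the genome 49 genes hold ERSE or ERSE-II in this window, and 26 of them were measured. Of these 26, 11 lay above 0 (42.3%, beside 45.7% of all measured genes). Among them 1 was at least 2-fold higher, beside 9.00% of all measured genes, and 2 were at least 2-fold lower, beside 8.35%. Their median was -0.12, beside -0.05 over all genes.

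The other genes of the response were read from lists of regulators, ERAD components, chaperones, translocation genes and downstream targets. Among 24 regulators of the response, 14 lay above 0 (58.3%, beside 45.7% of all measured genes), with a median difference of 0.14. Of the 24, 2 reached 2-fold, both upwards, which is near the 9.00% of all measured genes that did so. Wfs1, the ER membrane protein wolframin, had levels of -0.43 in the knockdown and -1.82 in the control, 2.63-fold higher. Creb3l3, a membrane-bound transcription factor related to ATF6, had levels of -0.62 in the knockdown and -2.08 in the control, 2.75-fold higher. Of the proteases that release ATF6, Mbtps2 had a difference of 0.62, with 0.73 at its other probe, while Mbtps1 had -0.16 at its brighter and 0.97 at its dimmer probe. Atf4, the transcription factor downstream of PERK, had levels of 5.15 in the knockdown and 5.54 in the control, a difference of -0.39 that its other probe repeated at -0.39. Ddit3, which encodes CHOP, the proapoptotic factor of prolonged stress, had a difference of -0.14.

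ERAD components outside the 10 genes had the highest median of these lists, 0.26. Of 39 measured genes 29 lay above 0 (74.4%, beside 45.7% of all measured genes) and 36 stayed within 2-fold. The 2 genes beyond it upwards (9.00% of all measured genes) and the 1 downwards (8.35%) are no larger a share than over the whole array. The derlins, membrane proteins that help move substrates out of the ER, had differences of 0.51 for Derl1 and 0.72 for Derl2 at their brightest probes. Another probe of Derl1 gave 0.0036, and the other probes of Derl2 gave 0.80 and -0.27. Derl3 was not well above background on either array. Edem2 and Edem3, relatives of Edem1, had differences of 0.70 and 0.39, and Os9, the lectin that brings glycoproteins to HRD1, had 0.32. Ubxn8, an ER protein that binds the segregase VCP, was 2.09-fold higher by the main setting and had a difference of 0.92 with normexp. Ubxn4, whose control signal was not well above background, was higher by at least 1.22-fold by the main setting. It is counted among the 2 by its measured difference of 1.32, which shrank to 0.19 with normexp. Svip, a small inhibitor of ERAD that binds VCP and derlins, had levels of -4.18 in the knockdown and -1.79 in the control, 5.23-fold lower, and a difference of -1.5 with normexp. Selenos and Fam8a1, partners of the HRD1 complex named after their values were seen, had differences of 0.79 and 0.57. Also named after the values were seen, Erlec1 and Aup1 of the same list had differences of -0.32 and -0.084. Ube2j1 had 0.26 at its brightest probe, with 0.32 and -0.63 at its other probes.

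ER chaperones and folding enzymes lay close to the rest of the array. Of 36 genes 15 had a difference above 0 (41.7%, beside 45.7% of all measured genes), with a median of -0.11. None was 2-fold higher, beside 9.00% of all measured genes, and 1 was at least 2-fold lower, beside 8.35%. Hspa5, the chaperone BiP that binds the sensors at rest, had levels of 5.78 in the knockdown and 5.63 in the control, a difference of 0.15. Hsp90b1, the ER chaperone GRP94, had 5.37 in the knockdown and 5.77 in the control, a difference of -0.40. Dnajb9, a BiP cofactor and target of XBP1, had a difference of 0.67, with 0.95 at its other probe. Cdnf, a secreted neurotrophic factor of the ER, was 3.38-fold lower, and its difference of -1.76 shrank to -0.74 with normexp. Of 24 genes for ER translocation and signal peptide cleavage, 19 had a difference above 0 (79.2%, beside 45.7%) and none reached 2-fold, with a median of 0.16. Sec11c, a signal peptidase subunit, had a difference of 0.72. Sec63 had 0.62 and Srp54a, a subunit of the signal recognition particle, -0.78, but another probe of each gave the opposite sign, -0.73 and 0.26.

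**Figure D5:**
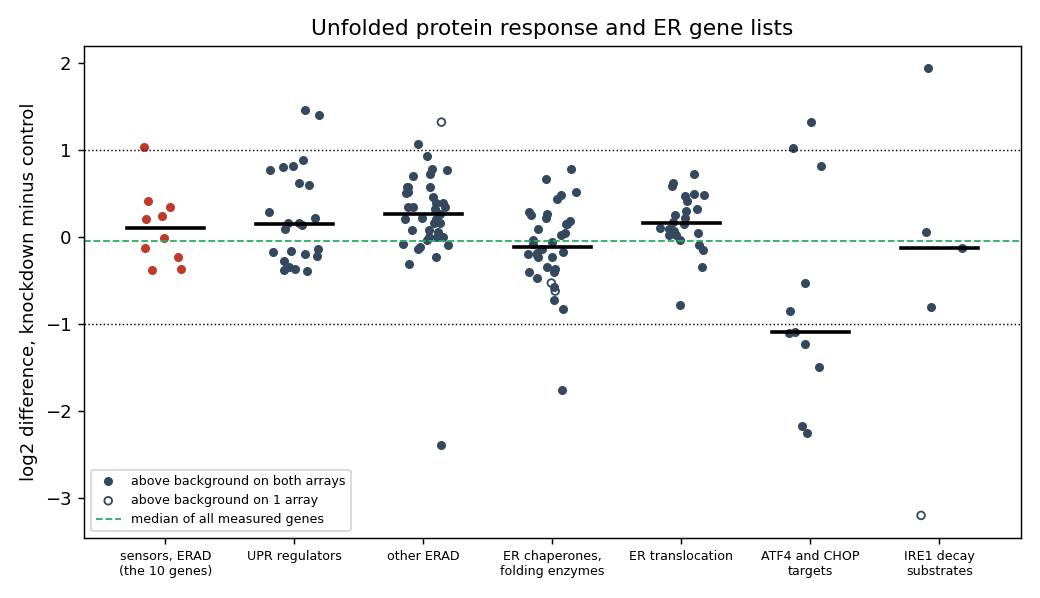
Log2 difference, knockdown minus control, of each measured gene by list, with black bars at the list medians, a dashed line at the median of all measured genes (-0.05) and dotted lines at 2-fold. Open circles are genes above background on 1 array only. The bar of the other ERAD genes is at 0.26, that of chaperones and folding enzymes at -0.11 and that of ATF4 and CHOP targets at -1.09.

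Targets of ATF4 and CHOP, factors that lie below PERK in this response, had a median of -1.09, with 8 of 11 genes below 0. PERK activity was not measured here, and the cause of these differences was not tested. At least 2-fold lower were 6 of the 11, beside 8.35% of all measured genes, and 2 were at least 2-fold higher, beside 9.00%. Chac1, which degrades glutathione, was 4.77-fold lower, the stress gene Nupr1 4.50-fold, the mTORC1 inhibitor gene Ddit4 2.81-fold and the asparagine synthetase gene Asns 2.35-fold lower, while the transcription factor gene Atf3 was 2.49-fold higher. The other genes above 0, named after their values were seen, were Slc7a11, the cystine transporter gene, with a difference of 1.03 (0.68 with normexp), and the stress gene Sesn2 with 0.81. Of 7 mRNAs known as substrates of IRE1-dependent decay, 5 were measured, with a median of -0.13. Bloc1s1, the best described of them, had levels of 3.92 in the knockdown and 4.05 in the control, a difference of -0.13. Pmp22 was 3.83-fold higher, with both probes in that direction. Pdgfrb, not well above background in the knockdown, was at least 2.09-fold lower by the main setting and had a difference of -0.97 with normexp.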

How the data were processed

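The deposited scanner files hold 1 linear intensity per spot, and the submitters' processing notes name Agilent Feature Extraction 10.7.3.1. Each array has 1 colour. The headers record that signals were detrended spatially and multiplicatively, that surrogates stand in for signals below background, and that probes are placed on mm9. Both arrays share a slide and a scan, per the file headers. Per the labels, 200 ng of total RNA was used per sample. The deposited value table holds the same intensity rounded, with ratios to the scanner values of 0.995 to 1.005 and column medians of 27.8 for the knockdown and 28 for the control, so its scale is linear and uncentred.

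From each processed intensity, as log2, the 75th percentile of its array without control spots was subtracted (1255 in the knockdown, 1172 in the control), outlier spots (177 in the knockdown, 162 in the control) were left out, and repeated spots were averaged in log2. No spot was saturated. For the single-spot SD, the spots of both arrays were taken as independent, and pairing them by position gave 0.044. Genes were named through the RefSeq table of GRCm38.p6 for 30175 of 39420 probes, and a gene took its brightest probe where that was above background on at least 1 array. A fold given as at least N divides the bright signal by a floor on the dim array: its smallest signal well above background, or the probe's own signal if greater. Such a bound holds for the main setting only, and other processing can give less. Differences were computed with Python 3.11.15 and alternatives with R 4.3.3 and limma 3.58.1 (normexp with offset 50, quantile, cyclic loess). The 10 genes and the lists were chosen with earlier results of these data known. Named are the 10 genes, Lamtor1, in each other list the genes at 2-fold or more (otherwise the 3 largest, at most 5), and 14 canonical genes. Tested on simulated data for the knockdown against the control with 13723 genes, all 50 genes shifted by each of 1.5, -1.5, 3 and -3 passed 2-fold in the right direction, and none of 13523 unshifted genes did. The simulated noise was of the order of spotting error, without variation of cultures or labelling, and no shift lay as close to 2-fold as Ern1. The simulation therefore checks the calculation and gives no rate of false calls on real arrays. The result of 1 macrophage marker is not reported here.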

Additional observations from a re-analysis of the deposited data

How the results depend on the processing

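Each result was recomputed under up to 9 alternatives, all planned, and 284 of 322 values stayed within the repeated-spot SD or, for counts, within 1.5 times. For genes with a single probe the median over probes repeats the main value, and the deposited value table holds the same intensities rounded. Of the 10 genes, Edem1 changed sign under an alternative that used the same probe, and Ern1, 1.03 log2 units apart, did not. Median scaling added 0.09 to every difference by construction, and gave 1.12 for Ern1, -0.29 for Xbp1, -0.27 for Atf6, 0.43 for Eif2ak3, -0.038 for Herpud1, 0.33 for Sel1l, 0.086 for Edem1, 0.51 for Syvn1, -0.14 for Pdia4 and 0.30 for Creld2. The list medians then were 0.20 for the 10 genes, 0.24 for regulators, 0.35 for other ERAD genes, -0.017 for chaperones, 0.25 for translocation genes, -0.999 for ATF4 and CHOP targets and -0.036 for IRE1 decay substrates. Cyclic loess gave 1.11 for Ern1, -0.29 for Xbp1, and medians of -0.0225 for chaperones and -0.98 for ATF4 and CHOP targets. Normexp gave 0.84 for Ern1, which left 0 of the 10 genes at 2-fold higher, and 0 other ERAD genes at 2-fold higher. It left 0 chaperones at 2-fold lower, a median of -0.83 and 1 gene at 2-fold higher among ATF4 and CHOP targets, and 1 IRE1 decay substrate above 0 and 0 at 2-fold lower. Scaling over spots above background left 0 of the 10 genes and 1 ATF4 or CHOP target at 2-fold higher. The median over probes gave -0.033 for Syvn1 and -0.020 for the median of the 10 genes. Both follow from taking in the opposite-strand probe with the older symbol, while the probe named Syvn1 gave 0.37 to 0.51 under the other alternatives. Restricting to genes above background on both arrays left 1 other ERAD gene at 2-fold higher, a median of -0.034 and 0 genes at 2-fold lower among IRE1 decay substrates. Without a filter on dim probes the median of ATF4 and CHOP targets was -0.97, and after quantile normalization it was -1.01. Over all genes, the 2-fold counts were 1240 higher and 1150 lower by the main setting, 789 and 613 with normexp, and 1370 and 1028 after median scaling. Without the filter on dim probes they were 1657 and 1760, and restricted to both arrays 793 and 693. The cause of the changes other than by scaling was not tested. The spot signal limits what dim probes can show, as for Svip, Cdnf and Ubxn4. No paired analysis was possible because each group has 1 array.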

Other observations

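Gene groups next to ERAD were read from lists chosen after the values of the 10 genes were seen, and they are described without a test. ER-phagy receptors, which deliver ER fragments to the lysosome, had a median difference of 0.40, with 5 of 8 genes above 0 and none at 2-fold. Tex264 had levels of 3.88 in the knockdown and 2.95 in the control, a difference of 0.93. Rtn3, Retreg3 and Retreg1 had differences of 0.68, 0.62 and 0.54, while Retreg2, Calcoco1 and Atl3 had -0.25, -0.28 and -0.33.

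Subunits of the oligosaccharyltransferase, which attaches glycans to nascent proteins in the ER, had a median of 0.28, with 8 of 9 above 0 and none at 2-fold. Magt1 had a difference of 0.69, Stt3b of 0.58 and Ddost of -0.14. Of 12 genes of the COPII coat, which buds vesicles from the ER, 11 were above 0, with a median of 0.18. Sec24d, a cargo adaptor of the coat, had levels of 0.22 in the knockdown and -0.80 in the control, 2.01-fold higher. Its difference of 1.01 lies at the 2-fold limit, and no alternative processing is given for it here. This 1 gene of 12 is near the share of all measured genes at least 2-fold higher, 9.00%. Over all measured genes 45.7% were above 0, 8.35% were at least 2-fold lower and the median was -0.05.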
